A study of Homo sapiens with 24 samples.

Results

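Genes of the PI3K, AKT and mTOR pathway were followed through 24 arrays of LNCaP cells, an androgen-responsive human prostate cancer cell line. The set was PIK3R1, PIK3R3, AKT1, AKT2, MTOR, MLST8, RHEB, TSC1, TSC2 and 1 further gene that is not analysed here. A gene was measured by a probe set (a group of oligonucleotides for 1 transcript) annotated to that gene alone, and where it had several, by the probe set with the highest mean over the 24 arrays. This left 9 of the 10 genes, among 11963 genes with such a probe set. All 9 were among the 6782 genes whose mean reached the median of all probe sets (2.85 on the log2 scale), which were the genes tested.

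Cells were nucleofected (a form of electroporation) with 2.5 µg of plasmid that carried 1 of 3 microRNAs (miR-130a, miR-203, miR-205) or, as the control, a scramble sequence. From every transfection 2 kinds of RNA were taken: total RNA, and RNA recovered with an antibody against AGO2, the Argonaute protein that carries microRNAs to their target transcripts. Each of the 8 groups was measured on 3 arrays that received 2 µg of RNA each, labelled as biological replicates. The series set out to find the transcripts that each microRNA binds directly. The arrays of a transfection represent cells given microRNA from a plasmid, in a single cell line, and the level that each microRNA reached was not analysed here.

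PI3K is a lipid kinase that growth factor receptors switch on, and its regulatory subunits, such as those encoded by PIK3R1 and PIK3R3, hold and steer the catalytic subunit. Its product recruits the kinases AKT1 and AKT2 to the membrane, and active AKT phosphorylates TSC2, which together with TSC1 holds the small GTPase RHEB in its inactive state. Free of this brake, RHEB activates the kinase mTOR in the complex mTORC1, which drives protein synthesis and growth. MLST8 is a small subunit that binds mTOR in both of its complexes. The pathway is often active in prostate cancer, where it acts beside androgen signalling.

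The mature microRNAs are shown because the seed (bases 2 to 8, in capitals) is the stretch that pairs with target transcripts. Sequences are from RefSeq on GRCh38.p14, and each is the usual arm of its hairpin, since the labels name no arm.
miR-203a-3p, chr14:104117469-104117490, + strand: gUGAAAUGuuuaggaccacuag
miR-205-5p, chr1:209432166-209432187, + strand: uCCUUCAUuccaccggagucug
The seeds of miR-203a-3p and miR-205-5p are different, so pairing through the seed would address different sites. The third microRNA of the study is miR-130a.

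All values are log2 expression as the authors deposited it, and a difference of 1 is a doubling. They are relative within an array, and in bulk RNA fewer cells of a type and less RNA per cell cannot be told apart. Luminal prostate genes were present throughout: KLK3, which encodes prostate-specific antigen, lay between 10.4 and 13.6, and KLK2, TMPRSS2, HOXB13, KRT8, KRT18 and ACP3 lay above the floor on all 24 arrays, while FOLH1 lay at the floor on 2. The basal, stromal, leukocyte and endothelial markers KRT5, COL1A2, DCN, PTPRC, CD14 and PECAM1 were at the floor on all 24 arrays, KRT14 on 22 and CDH5 on 23, whereas COL1A1 lay between 3.06 and 4.53. In technical measures, whose part in the results was not tested, the kinds of RNA differed. The mean of spiked control probe sets was 6.76 to 8.47 on AGO2-bound arrays and 6.26 to 6.66 on total RNA arrays. The excess of the 3′ over the 5′ probe set of the ACTB control, a measure of transcript integrity, was 2.22 to 3.94 on AGO2-bound and 2.00 to 2.44 on total RNA arrays. Within a transfection, all AGO2-bound arrays lay above all total RNA arrays after scramble, miR-130a and miR-205. Only after miR-203 did the 2 kinds of RNA overlap. Differences between AGO2-bound and total RNA stand beside this one. The ACTB excess also moved within AGO2-bound RNA. It was 2.93, 3.42 and 3.84 after scramble, 2.22, 2.66 and 2.78 after miR-130a and 2.30, 2.93 and 2.82 after miR-203, all of the latter 6 below the lowest scramble array. After miR-205 (3.94, 3.20 and 3.21) it overlapped scramble and lay above all miR-130a and miR-203 arrays. The AGO2-bound changes after miR-130a and miR-203 stand beside this shift, as do the AGO2-bound contrasts of miR-205 with these 2 microRNAs. The 6 arrays of miR-130a, the 6 of miR-203 and the 12 of miR-205 and scramble had floors of their own (2.344895, 2.346843 and 2.347327). No source used here says why. Whatever sets the floor cannot be told apart from the transfection for miR-130a and miR-203 against scramble, while miR-205 and scramble share a floor, as do the AGO2-bound and total RNA arrays of any transfection.

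The widest movement in the pathway was that of MLST8 after miR-205. Its AGO2-bound level rose 13.5-fold over scramble while its total RNA level fell by 1.29 on the log2 scale. The AGO2-bound levels of RHEB and PIK3R1 were also higher with miR-205, by 0.82 and 0.78. After miR-203, AKT1 rose by 1.07 and TSC2 fell by 0.75 in AGO2-bound RNA, and after miR-130a PIK3R3 rose in both kinds of RNA. Each is described below with its arrays. Comparisons of the 3 microRNAs with scramble share the same 3 scramble arrays of each kind of RNA, so their changes are given side by side only. A gene passed the test where the limma p, adjusted by Benjamini-Hochberg over the 6782 genes, was under 0.05. Since the labels do not name separate cultures, a p measures only how these arrays vary, and 3 arrays per group limit the precision.

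**Figure D1:**
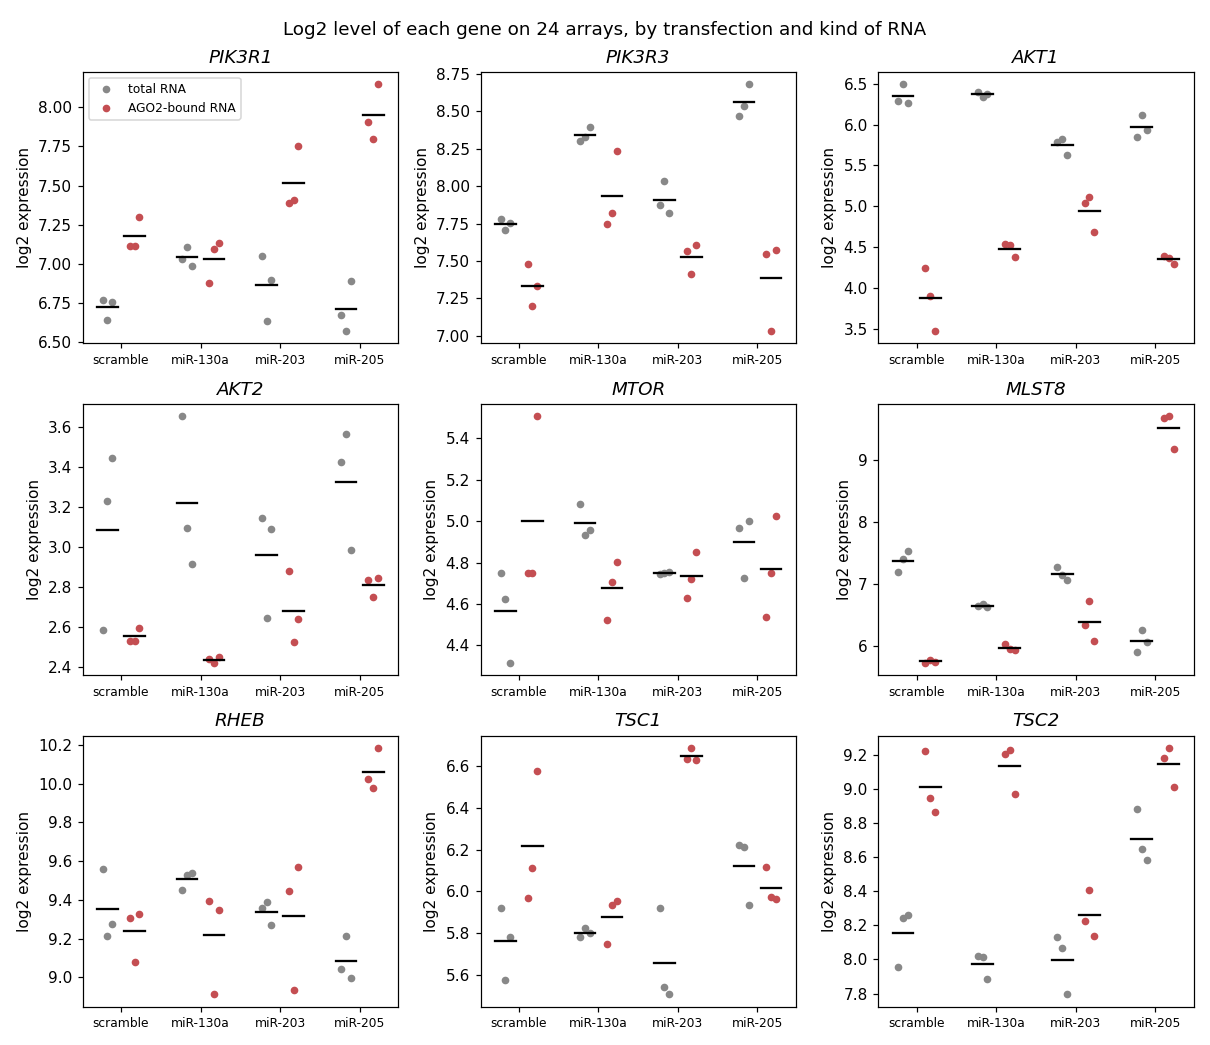
Log2 expression of each gene on all 24 arrays (vertical axis, a scale of its own per gene), by transfection, with total RNA in grey and AGO2-bound RNA in red; a point is 1 array and a bar the mean of 3. The 3 AGO2-bound arrays of miR-205 lie between 9.17 and 9.71 for MLST8, above all other arrays.

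PIK3R1 encodes p85alpha, the main regulatory subunit of PI3K. Its AGO2-bound level was 7.11, 7.11 and 7.30 after scramble (7.18 ± 0.11, SD, n = 3) and 7.91, 7.80 and 8.15 after miR-205 (7.95 ± 0.18). It was 7.39, 7.41 and 7.75 after miR-203 (7.52 ± 0.21) and 6.87, 7.09 and 7.13 after miR-130a (7.03 ± 0.14). The miR-205 arrays all lay above those of scramble, miR-130a and miR-203, and the miR-203 arrays all lay above scramble. Against scramble the rise after miR-205 was 0.78 ± 0.15 (SE, adjusted p = 0.00075). The difference after miR-203 was 0.34 ± 0.15 and did not pass (adjusted p = 0.07), but it passed with the replicate number as a block (adjusted p = 0.02), a fit that pairs arrays whose deviations do run together. In total RNA the scramble arrays read 6.77, 6.64 and 6.76, the miR-205 arrays 6.67, 6.57 and 6.89, and these overlapped (difference -0.01 ± 0.11, adjusted p = 0.96). Total RNA after miR-130a was 7.03, 7.11 and 6.98, above all scramble arrays by 0.32 ± 0.11 without passing (adjusted p = 0.051). This difference passed with probe sets averaged (adjusted p = 0.042), another spread prior (adjusted p = 0.038) and the replicate block (adjusted p = 0.049). It did not pass with the other scalings or without the filter.

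The 3 PIK3R1 probe sets that reached the filter did not move alike. For AGO2-bound RNA after miR-205 the second gave 0.40 ± 0.19 (adjusted p = 0.12) and the third 0.24 ± 0.16 (adjusted p = 0.28), both higher than scramble without passing. After miR-203 the third probe set fell by 0.51 ± 0.16 (adjusted p = 0.019), against the positive difference of the probe set used. The second was also lower in the mean after miR-203, at 7.02 against 7.26 after scramble, with overlapping arrays. The mean of all PIK3R1 probe sets still rose after miR-205, by 0.47. The values above thus describe the transcripts that the brightest probe set reads.

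PIK3R3 encodes p55gamma, a shorter regulatory subunit. In total RNA it read 7.78, 7.71 and 7.75 after scramble (7.75 ± 0.04), 8.30, 8.33 and 8.39 after miR-130a (8.34 ± 0.05) and 8.47, 8.53 and 8.68 after miR-205 (8.56 ± 0.11). After miR-203 it read 7.87, 8.04 and 7.82 (7.91 ± 0.11). Every miR-130a and miR-205 array lay above every scramble array. The rises were 0.59 ± 0.09 after miR-130a (adjusted p = 0.00034) and 0.81 ± 0.09 after miR-205 (adjusted p = 3.8e-05), the latter rank 82 from the top of the 6782 genes. In total RNA after miR-203 the difference was 0.16 ± 0.09 (adjusted p = 0.15).

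AGO2-bound PIK3R3 showed a rise after miR-130a only among these tests against scramble. The arrays read 7.75, 7.82 and 8.24 after miR-130a (7.93 ± 0.26) and 7.48, 7.20 and 7.33 after scramble (7.34 ± 0.14), and did not overlap. This rise of 0.60 ± 0.17 (adjusted p = 0.015) no longer passed without miR-130a replicate 3 or without scramble replicate 2 of the AGO2-bound arrays, where it was 0.45 to 0.53 with an adjusted p of 0.065 to 0.073. AGO2-bound arrays after miR-205 read 7.55, 7.03 and 7.58 and overlapped scramble, with a difference of 0.05 ± 0.17. The dimmer PIK3R3 probe set rose by 0.85 ± 0.19 in total RNA after miR-130a (adjusted p = 0.0067) and gave 0.23 ± 0.19 after miR-205 (adjusted p = 0.44), so the total RNA rise after miR-205 was seen with 1 of 2 probe sets.

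AKT1, the most widely expressed AKT kinase, was low in AGO2-bound RNA and higher in total RNA. After scramble the AGO2-bound arrays read 4.25, 3.91 and 3.48 (3.88 ± 0.39), the widest spread of any group for this gene. They read 5.05, 5.12 and 4.68 after miR-203 (4.95 ± 0.23), 4.54, 4.53 and 4.38 after miR-130a (4.48 ± 0.09), and 4.40, 4.37 and 4.30 after miR-205 (4.36 ± 0.05). All arrays of the 3 microRNAs lay above the highest scramble array. The rise after miR-203 was 1.07 ± 0.18 (2.10-fold, adjusted p = 0.00024), and it was 0.87 to 1.25 when any array was left out. The rises after miR-130a (0.60 ± 0.18, adjusted p = 0.017) and after miR-205 (0.47 ± 0.18, adjusted p = 0.047) were less secure. Without AGO2-bound scramble replicate 3, the lowest array, they were 0.40 and 0.27 and did not pass. The rise after miR-130a was also lost without miR-130a replicate 2. That after miR-205 was lost without any 1 of the miR-205 arrays or scramble replicate 2, and with no filter on signal (adjusted p = 0.11).

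Total RNA of AKT1 moved the other way after miR-203 and miR-205. Scramble arrays read 6.28, 6.49 and 6.27 (6.35 ± 0.13), miR-203 arrays 5.78, 5.82 and 5.63 (5.74 ± 0.10) and miR-205 arrays 5.85, 6.12 and 5.93 (5.97 ± 0.14). All arrays of both microRNAs lay below all scramble arrays. AKT1 fell by 0.60 ± 0.10 after miR-203 (adjusted p = 0.00042) and by 0.38 ± 0.10 after miR-205 (adjusted p = 0.012). The fall after miR-205 was not called without total miR-205 replicate 1 (adjusted p = 0.059) or when all 24 arrays were fitted together (adjusted p = 0.093). After miR-130a the total RNA arrays read 6.40, 6.33 and 6.37 and overlapped scramble (0.02 ± 0.10).

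AKT2, the paralogue tied to insulin signalling, lay near the floor throughout. Its 24 values ran from 2.42 to 3.65, where changes of a dim transcript are compressed, and its other probe sets lay below the filter. Against scramble it passed in none of the 6 tests, with differences of -0.12 to 0.26 in AGO2-bound and -0.13 to 0.24 in total RNA.

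MTOR encodes the kinase itself. Its 8 group means lay between 4.56 and 5.00, the smallest span of the 9 genes (0.44), and each group overlapped its neighbour in order of level. AGO2-bound scramble arrays read 4.75, 4.75 and 5.51, and 4.52 to 5.02 covered the AGO2-bound arrays of all 3 microRNAs. Total RNA arrays read 4.75, 4.63 and 4.32 after scramble (4.56 ± 0.22) and 5.08, 4.93 and 4.96 after miR-130a (4.99 ± 0.08). The miR-130a arrays lay above all scramble arrays by a mean of 0.43 ± 0.11 (adjusted p = 0.014). The call was lost when replicate 1 of miR-130a or replicate 3 of scramble was left out of the total RNA arrays (0.30 to 0.38, adjusted p = 0.054 to 0.056) and in the fit of all 24 arrays (adjusted p = 0.081). Total RNA after miR-205 was higher by 0.33 ± 0.11 at the edge of the threshold (adjusted p = 0.05), and was not called. It passed with quantile normalization (adjusted p = 0.016) and median centring (adjusted p = 0.027). Between miR-130a and miR-205 the difference was 0.09 ± 0.11 (adjusted p = 0.54). After miR-203 it was 0.19 ± 0.11 over scramble (adjusted p = 0.21).

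MLST8 was the gene with the largest span, 3.76 between its lowest and highest group mean. In AGO2-bound RNA it read 9.67, 9.71 and 9.17 after miR-205 (9.51 ± 0.30) and 5.74, 5.78 and 5.75 after scramble (5.76 ± 0.02). The miR-203 arrays read 6.34, 6.74 and 6.08 (6.39 ± 0.33), the miR-130a arrays 6.04, 5.95 and 5.94 (5.98 ± 0.05). The 3 miR-205 arrays stood more than 2 log2 units above every other AGO2-bound array. The rise over scramble was 3.76 ± 0.18 (adjusted p = 1.8e-09), rank 17 from the top of 6782 genes, and it stayed between 3.66 and 3.93 whichever array was left out. After miR-203 MLST8 rose by 0.63 ± 0.18 (adjusted p = 0.0091), and this was not called without miR-203 replicate 2, the highest of those arrays, where it was 0.46. After miR-130a the difference of 0.22 ± 0.18 did not pass (adjusted p = 0.36), although its arrays did not overlap those of scramble.

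Total RNA of MLST8 was lower after miR-205 and miR-130a. Scramble arrays read 7.19, 7.40 and 7.54 (7.38 ± 0.17), miR-205 arrays 5.91, 6.27 and 6.07 (6.08 ± 0.18) and miR-130a arrays 6.65, 6.67 and 6.63 (6.65 ± 0.02). Both sets of arrays lay wholly below scramble. The level fell by 1.29 ± 0.11 after miR-205 (2.45-fold lower, adjusted p = 9.6e-06), rank 79 from the bottom of 6782 genes, and by 0.73 ± 0.11 after miR-130a (adjusted p = 0.0005). After miR-203 the arrays read 7.27, 7.15 and 7.06 and overlapped scramble, with a difference of -0.22 ± 0.11 (adjusted p = 0.14). It passed without total scramble replicate 1, at -0.31. MLST8 has a single probe set here, so no second reading of these changes exists.

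RHEB encodes the GTPase that switches on mTORC1. Its AGO2-bound arrays read 9.31, 9.08 and 9.33 after scramble (9.24 ± 0.14) and 10.03, 9.98 and 10.18 after miR-205 (10.06 ± 0.11). They read 9.40, 8.91 and 9.35 after miR-130a and 9.45, 8.94 and 9.57 after miR-203. The miR-205 arrays were the only AGO2-bound arrays above 9.57, and the other groups overlapped each other. The rise over scramble was 0.82 ± 0.18 (1.77-fold, adjusted p = 0.0021). In total RNA after miR-205 the arrays read 9.044, 9.211 and 8.996 against 9.559, 9.215 and 9.277 after scramble, a difference of -0.27 ± 0.10 that did not pass (adjusted p = 0.072). The probe set used can also read near-identical sequences by the maker's suffix. A second RHEB probe set, with another suffix, rose by 0.88 ± 0.19 in AGO2-bound RNA after miR-205 (adjusted p = 0.0022) and gave -0.06 ± 0.15 in total RNA. The remaining RHEB probe sets, among them the only one with a plain suffix, lay below the filter.

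TSC1 (hamartin) and TSC2 (tuberin) form the complex that restrains RHEB, and after miR-203 they differed in direction. AGO2-bound TSC2 read 9.22, 8.95 and 8.86 after scramble (9.01 ± 0.19) and 8.23, 8.41 and 8.14 after miR-203 (8.26 ± 0.14). All miR-203 arrays lay below all AGO2-bound arrays of the other transfections. TSC2 fell by 0.75 ± 0.14 (adjusted p = 0.00063). AGO2-bound TSC1 read 5.97, 6.11 and 6.58 after scramble (6.22 ± 0.32) and 6.64, 6.69 and 6.63 after miR-203 (6.65 ± 0.03). These did not overlap, but scramble replicate 3 came within 0.1 of them. The rise of 0.43 ± 0.15 (adjusted p = 0.031) was not called without any 1 of the miR-203 arrays, scramble replicate 1 or scramble replicate 2 (0.31 to 0.44, adjusted p = 0.056 to 0.14).

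After miR-205 and miR-130a neither gene passed against scramble in AGO2-bound RNA. TSC1 differed by -0.34 ± 0.15 after miR-130a (adjusted p = 0.1) and by -0.20 ± 0.15 after miR-205, and TSC2 by 0.12 ± 0.14 and 0.13 ± 0.14. In total RNA, TSC2 read 7.96, 8.24 and 8.26 after scramble (8.15 ± 0.17) and 8.88, 8.65 and 8.59 after miR-205 (8.71 ± 0.16). The miR-205 arrays were the highest total RNA arrays, and the rise was 0.55 ± 0.12 (adjusted p = 0.0048). TSC1 in total RNA after miR-205 was higher by 0.36 ± 0.13 and did not pass (adjusted p = 0.057). It passed with quantile normalization (adjusted p = 0.043) and with median centring (adjusted p = 0.037). The second TSC2 probe set lay below the filter, and averaging it in brought the AGO2-bound fall after miR-203 to 0.33 and the total RNA rise after miR-205 to 0.26, both still called.

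**Figure D2:**
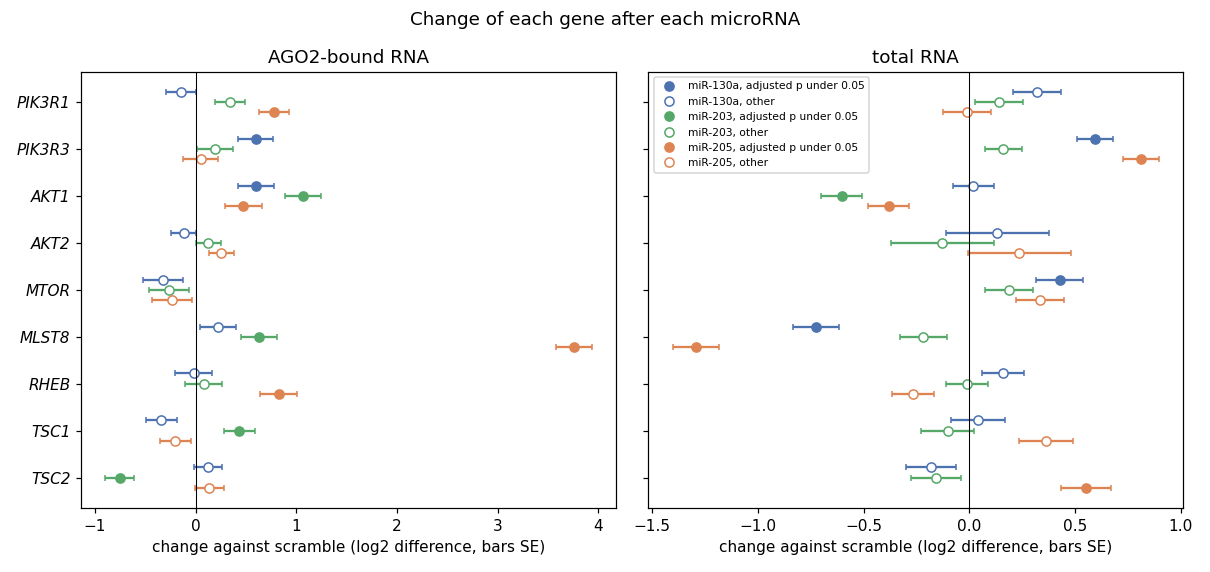
Log2 difference of each microRNA from scramble for each gene, in AGO2-bound RNA (left) and total RNA (right, with a narrower axis); bars are standard errors and filled points have an adjusted p under 0.05. MLST8 after miR-205 lies at 3.76 on the left and at -1.29 on the right.

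The calls in the pathway were counted beside those over all genes. In AGO2-bound RNA, 2 of 9 genes rose after miR-130a and none fell, where 38.5% of all genes passed (18.6% higher and 19.9% lower). After miR-203, 3 rose and 1 fell, where 51.4% of all genes passed (22.7% higher and 28.8% lower). After miR-205, 4 rose and none fell, where 44% passed (20.4% higher and 23.7% lower). In total RNA after miR-130a, 2 rose and 1 fell, where 29.3% of all genes passed (15.9% higher and 13.3% lower). In total RNA after miR-203 only AKT1 passed, and it fell, where 39.6% of all genes passed (19.8% in either direction alone). In total RNA after miR-205, 2 rose and 2 fell, where 23.5% passed (10.1% higher and 13.3% lower). The median absolute change of the 9 genes in AGO2-bound RNA was 0.22, 0.34 and 0.26 after miR-130a, miR-203 and miR-205, beside 0.35, 0.47 and 0.39 over all genes. In total RNA it was 0.18, 0.16 and 0.36, beside 0.21, 0.25 and 0.18. With 9 genes, these counts are too few to set the group apart from all genes, and MLST8 after miR-205 was the gene among them with the largest change.

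Between the kinds of RNA, AGO2-bound against total, 8 of the 9 genes passed after scramble (4 higher and 4 lower in AGO2-bound RNA, where 72.9% of all genes passed, 35.1% higher and 37.8% lower). AGO2-bound minus total RNA was -2.47 ± 0.15 for AKT1 (adjusted p = 3.4e-13) and -1.62 ± 0.15 for MLST8 (adjusted p = 1e-09). TSC2 was higher by 0.86 ± 0.13 (adjusted p = 3.2e-06) and PIK3R1 by 0.45 ± 0.13 (adjusted p = 0.004). The other PIK3R1 probe sets gave 1.78 (adjusted p = 8.5e-09) and 0.01 (adjusted p = 0.96), so its size depends on the probe set. The control transfection thus had AKT1 and MLST8 transcripts low and TSC2 transcripts high in the AGO2 precipitate. PIK3R3 (-0.41), AKT2 (-0.53), MTOR (0.44) and TSC1 (0.46) also passed, but each rested on single arrays. The PIK3R3 call was lost without AGO2-bound scramble replicate 2 (-0.34). The AKT2 call was lost without total scramble replicate 2 or 3 (-0.46 and -0.36) and without the filter on signal (adjusted p = 0.052). The MTOR call was lost without AGO2-bound scramble replicate 3 (0.19) or total scramble replicate 3 (0.31), and when arrays were centred on their median (0.30, adjusted p = 0.1) or probe sets were averaged (0.21, adjusted p = 0.055). The TSC1 call was lost without AGO2-bound scramble replicate 3 (0.28).

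After miR-205, 7 of 9 genes passed (4 higher and 3 lower, where 72.7% of all genes passed, 36.6% higher and 36.1% lower), and MLST8 lay on the other side: it was higher in AGO2-bound RNA by 3.43 ± 0.15 (10.8-fold, adjusted p = 9.7e-16). PIK3R1 was higher by 1.24 ± 0.13 (adjusted p = 1.1e-08) and RHEB by 0.98 ± 0.15 (adjusted p = 2.9e-06), while AKT1 stood at -1.61 ± 0.15 (adjusted p = 7.3e-10) and PIK3R3 at -1.17 ± 0.14 (adjusted p = 6.7e-08). The other PIK3R1 probe sets read 7.67 in AGO2-bound against 5.59 in total RNA, and 4.49 against 4.33, so here too the size depends on the probe set. AKT2 stood at -0.51 ± 0.20 (adjusted p = 0.022) and lost its call without AGO2-bound miR-205 replicate 2 or total miR-205 replicate 1 or 2 (-0.49 to -0.40) and with its probe sets averaged (-0.15). TSC2 was higher by 0.44 ± 0.13 (adjusted p = 0.0048), which median centring brought to 0.27 (adjusted p = 0.083). That centring also moved the median of all genes in this comparison from -0.01 to -0.18, and that after scramble from -0.05 to -0.18. With all probe sets averaged, dim ones included, RHEB after miR-205 was 0.49 and TSC2 after scramble 0.48, both still called.

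After miR-203, 5 of 9 genes passed (2 higher, 3 lower, where 71.9% of all genes passed, 34.7% higher and 37.2% lower), among them TSC1 at 0.99 ± 0.14 (adjusted p = 1.2e-06), PIK3R1 at 0.65 ± 0.13 (adjusted p = 0.00012), AKT1 at -0.80 ± 0.15 (adjusted p = 4.2e-05) and MLST8 at -0.77 ± 0.15 (adjusted p = 7.7e-05). The second PIK3R1 probe set read 7.02 in AGO2-bound and 5.49 in total RNA, but the third read 3.74 and 3.96, the other way. PIK3R3 at -0.38 ± 0.14 was not called without replicate 2 of either kind of RNA (-0.32 in both) or after quantile normalization (-0.30). After miR-130a, 5 passed (1 higher, 4 lower, where 71.6% of all genes passed, 33.3% higher and 38.3% lower): TSC2 at 1.16 ± 0.13 (adjusted p = 3.2e-08), AKT1 at -1.89 ± 0.15 (adjusted p = 5.2e-11), AKT2 at -0.78 ± 0.20 (adjusted p = 0.001), MLST8 at -0.68 ± 0.15 (adjusted p = 0.00035) and PIK3R3 at -0.41 ± 0.14 (adjusted p = 0.013), the last lost without AGO2-bound miR-130a replicate 1 or 2. AKT1 was lower in AGO2-bound RNA in all 4 transfections. MLST8 was lower in 3 and higher after miR-205.

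**Figure D3:**
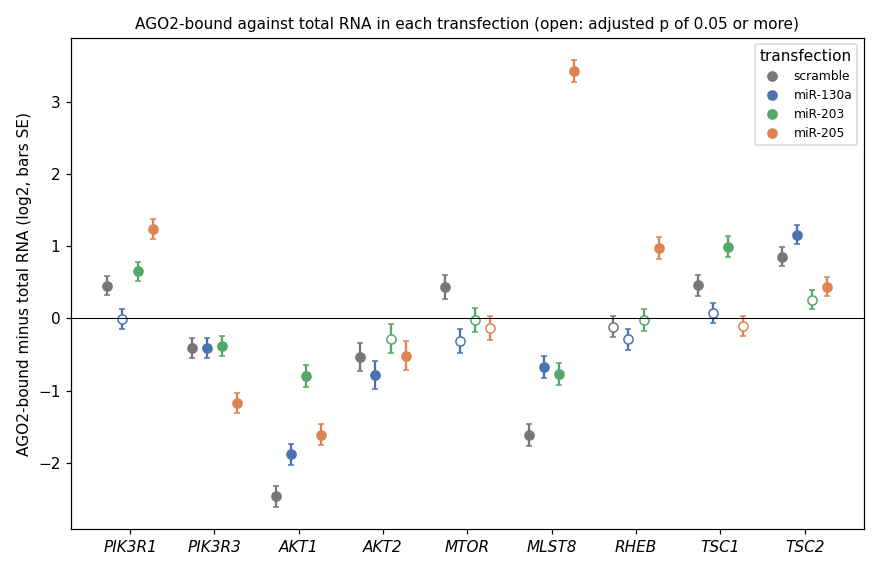
AGO2-bound minus total RNA (log2, vertical axis) for each gene in each of the 4 transfections; bars are standard errors and open points have an adjusted p of 0.05 or more. MLST8 lies between -1.62 and -0.68 after scramble, miR-130a and miR-203, and at 3.43 after miR-205.

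The test of the difference asks whether the change over scramble in AGO2-bound RNA departed from that in total RNA. After miR-205, 6 of 9 genes passed (4 higher in the AGO2 change and 2 lower, where 42.8% of all genes passed, 21.1% higher and 21.7% lower). MLST8 led with 5.05 ± 0.21 (adjusted p = 3.2e-15), rank 5 from the top of 6782 genes, followed by RHEB at 1.09 ± 0.21 (adjusted p = 0.00019), AKT1 at 0.86 ± 0.21 (adjusted p = 0.0019) and PIK3R1 at 0.79 ± 0.19 (adjusted p = 0.0015). The other PIK3R1 probe sets did not pass (0.29, adjusted p = 0.4, and 0.14, adjusted p = 0.67), so this call rests on 1 of 3. PIK3R3 differed by -0.76 ± 0.20 (adjusted p = 0.0033) and TSC1 by -0.57 ± 0.20 (adjusted p = 0.028). The dimmer PIK3R3 probe set moved from 2.67 to 2.73 in AGO2-bound and from 2.94 to 3.17 in total RNA. Its 2 changes thus differed in the same direction, but by less. The TSC1 call was lost without AGO2-bound miR-205 replicate 2, total miR-205 replicate 1 or 2, AGO2-bound scramble replicate 3 or total scramble replicate 2 (-0.54 to -0.39), and when the arrays in the fit were changed (adjusted p = 0.061).

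After miR-203, 4 of 9 passed (3 higher and 1 lower, where 49.1% of all genes passed, 22.1% higher and 27% lower): AKT1 at 1.67 ± 0.21 (adjusted p = 4.8e-07), MLST8 at 0.85 ± 0.21 (adjusted p = 0.0021), TSC1 at 0.54 ± 0.20 (adjusted p = 0.032) and TSC2 at -0.60 ± 0.19 (adjusted p = 0.011). For AKT1 the 2 changes had opposite signs, up in AGO2-bound and down in total RNA. The TSC1 call was lost in 7 of the 12 fits that leave out an array (0.41 to 0.53) and without the filter on signal (adjusted p = 0.052). The TSC2 call was lost when all its probe sets were averaged (-0.26, adjusted p = 0.1). After miR-130a, 3 passed (2 higher and 1 lower, where 34.5% of all genes passed, 16.2% higher and 18.4% lower): MLST8 at 0.95 ± 0.21 (adjusted p = 0.0012), AKT1 at 0.58 ± 0.21 (adjusted p = 0.035) and MTOR at -0.75 ± 0.24 (adjusted p = 0.015). MTOR did not pass without replicate 3 of scramble in either kind of RNA (-0.50 without the AGO2-bound array, -0.63 without the total RNA array). The AKT1 call was lost in 8 of 12 fits that leave out an array (0.38 to 0.60) and without the filter on signal (adjusted p = 0.061).

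Set directly against each other in AGO2-bound RNA, miR-205 differed most from miR-130a and from miR-203 in MLST8. The level after miR-130a minus that after miR-205 was -3.54 ± 0.18 (adjusted p = 2.1e-09), and miR-203 minus miR-205 was -3.13 ± 0.18 (adjusted p = 7e-09). For RHEB the same contrasts were -0.84 ± 0.18 (adjusted p = 0.0015) and -0.74 ± 0.18 (adjusted p = 0.0032), so both genes were highest after miR-205. For PIK3R1 they were -0.92 ± 0.15 (adjusted p = 0.00015) and -0.44 ± 0.15 (adjusted p = 0.024), the second lost with quantile normalization (-0.35, adjusted p = 0.06) and without AGO2-bound miR-203 replicate 1 or 2 or miR-205 replicate 3 (-0.38 to -0.34). The brake on RHEB told miR-203 apart: miR-203 minus miR-205 was -0.89 ± 0.14 for TSC2 (adjusted p = 0.00013) and 0.63 ± 0.15 for TSC1 (adjusted p = 0.0032). Likewise miR-130a minus miR-203 was 0.88 ± 0.14 for TSC2 (adjusted p = 0.00015) and -0.77 ± 0.15 for TSC1 (adjusted p = 0.00077). In all, 4 of 9 genes passed between miR-130a and miR-203 (55% of all genes), 5 between miR-130a and miR-205 (49.1%) and 6 between miR-203 and miR-205 (53.4%). Each of these contrasts is between arrays with different floors. Those with miR-205 are also between arrays apart in the ACTB 3′ over 5′ excess, whose part was not tested. It was 3.20 to 3.94 after miR-205 and at most 2.78 after miR-130a and 2.93 after miR-203. Same-numbered arrays of the microRNAs deviated together, and with the replicate number as a block PIK3R3 (0.41, adjusted p = 0.02) and MLST8 (-0.41, adjusted p = 0.022) also passed between miR-130a and miR-203, which made 6 of 9.

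In total RNA the MLST8 contrasts were smaller, and TSC2, PIK3R3 and AKT1 differed too. MLST8 was higher after miR-203 than after miR-205 by 1.08 ± 0.11 (adjusted p = 1.3e-05) and higher after miR-130a than after miR-205 by 0.57 ± 0.11 (adjusted p = 0.0016). TSC2 differed from its level after miR-205 by -0.73 ± 0.12 after miR-130a (adjusted p = 0.00042) and by -0.71 ± 0.12 after miR-203 (adjusted p = 0.00051). PIK3R3 after miR-203 minus miR-205 was -0.65 ± 0.09 (adjusted p = 8.7e-05). Its dimmer probe set read 3.28 after miR-203 and 3.17 after miR-205, so this contrast describes the brighter probe set only. AKT1 was higher after miR-130a than after miR-203 by 0.62 ± 0.10 (adjusted p = 0.00025). Of the 9 genes, 3 passed between miR-130a and miR-203 (45.2% of all genes), 5 between miR-130a and miR-205 (38.8%) and 4 between miR-203 and miR-205 (41.8%).

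Genes whose 8 group means ran most like those of a pathway gene were listed by Pearson correlation among 5472 genes spanning at least 1 log2 unit. The closest to MLST8 were IGBP1 (r = 0.99) and DDX49 (r = 0.99), each highest in AGO2-bound RNA after miR-205, where IGBP1 reached a mean of 9.19. RHEB ran closest to TBCE and SLC25A1 (r = 0.97 for both) and PIK3R1 to KAZN and TAF12 (r = 0.97 for both), all highest in that same group. TSC1 ran closest to NDRG3 (r = 0.96) and SHC1 (r = 0.95), both highest in AGO2-bound RNA after miR-203. AKT1 was nearest to KPNB1 and MRPL49 (r = 0.99 for both), and MTOR had no neighbour above 0.81. The 8 means share arrays and the contrast between the kinds of RNA, so these correlations are a description only.

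The rest of the pathway was read from a list of 60 genes, of which 50 had a probe set and 44 were tested. In AGO2-bound RNA after miR-205, 9 rose and 10 fell, where 44% of all genes passed (20.4% higher and 23.7% lower). Of the 8 tested genes of the amino acid branch, which gathers mTORC1 at the lysosome, 4 rose and 3 fell beside those same shares. LAMTOR2, a Ragulator subunit, rose by 3.29 ± 0.22 (adjusted p = 4.2e-08) and RRAGA, a Rag GTPase, by 2.54 ± 0.16 (adjusted p = 2.1e-08), whereas RRAGC fell by 1.73 ± 0.16 (adjusted p = 9.4e-07) and LAMTOR3 by 1.15 ± 0.16 (adjusted p = 4.1e-05). Among the outputs of mTORC1, the translation repressor EIF4EBP1 rose by 1.54 ± 0.23 (adjusted p = 9.2e-05) and its paralogue EIF4EBP2 fell by 1.17 ± 0.17 (adjusted p = 8.8e-05), the latter by 0.60 when its probe sets were averaged. The median absolute change of the 44 genes was 0.35, beside 0.39 over all genes.

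In total RNA after miR-205, 5 of the 44 rose and 6 fell, where 23.5% of all genes passed (10.1% higher and 13.3% lower). The S6 kinase gene RPS6KB2 fell by 1.78 ± 0.14 (adjusted p = 4.2e-06) and EIF4EBP1 by 1.66 ± 0.08 (adjusted p = 2.4e-07), so EIF4EBP1, like MLST8, was higher in AGO2-bound and lower in total RNA. LAMTOR2 and RRAGA did not pass in total RNA (-0.09 ± 0.09 for LAMTOR2 and -0.10 ± 0.09 for RRAGA). The receptor gene IGF1R rose by 0.90 ± 0.20 (adjusted p = 0.0061) and the AKT phosphatase gene PHLPP1 fell by 0.61 ± 0.12 (adjusted p = 0.003), both less with probe sets averaged (0.58 and -0.31) but still called. The count of 11 was 7 without the filter on signal, in the fit of all 24 arrays, and without total miR-205 replicate 1 or 2.

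**Figure D4:**
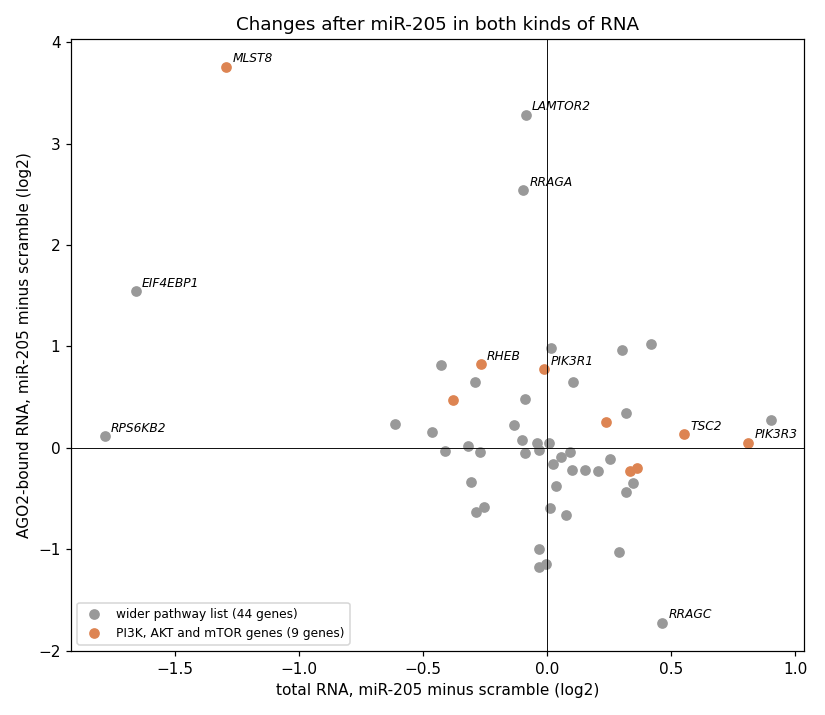
Change after miR-205 against scramble (log2) in total RNA (horizontal axis) and in AGO2-bound RNA (vertical axis) for the 9 genes (orange) and the 44 tested genes of the wider list (grey). MLST8 at -1.29 and 3.76 and EIF4EBP1 at -1.66 and 1.54 lie to the upper left, and LAMTOR2 and RRAGA lie high near a total RNA change of 0.

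After miR-203, 9 of the 44 rose and 14 fell in AGO2-bound RNA, where 51.4% of all genes passed (22.7% higher and 28.8% lower). NPRL2, a subunit of the GATOR1 complex that restrains mTORC1, rose by 2.70 ± 0.27 (adjusted p = 2.5e-06), the insulin receptor substrate IRS1 by 1.70 ± 0.20 (adjusted p = 1.2e-05), the ribosomal protein RPS6 by 1.63 ± 0.15 (adjusted p = 1.1e-06) and the initiation factor EIF4B by 1.60 ± 0.17 (adjusted p = 4.2e-06). IGF1R was 2.83-fold lower (adjusted p = 0.001), and LAMTOR3 fell by 1.46 ± 0.16 (adjusted p = 4.2e-06). In total RNA 7 rose and 9 fell, where 39.6% of all genes passed (19.8% in each direction). The catalytic subunit PIK3CB rose by 1.17 ± 0.10 (adjusted p = 3.9e-06) and the mTOR inhibitor DEPTOR by 1.03 ± 0.16 (adjusted p = 0.00029), and IGF1R fell by 0.98 ± 0.20 (adjusted p = 0.0024). IGF1R thus fell in both kinds of RNA after miR-203. Averaging all probe sets of a gene moved NPRL2, EIF4B and IGF1R by over 1.5 times but ended none of these calls.

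After miR-130a, 5 of the 44 rose and 10 fell in AGO2-bound RNA, where 38.5% of all genes passed (18.6% higher and 19.9% lower). NPRL3, another GATOR1 subunit, fell by 1.06 ± 0.18 (adjusted p = 0.00035) and the AMPK subunit PRKAG1 by 1.05 ± 0.21 (adjusted p = 0.0013), and PDPK1, the kinase that phosphorylates AKT, rose by 0.86 ± 0.16 (adjusted p = 0.0008). The count of 15 became 23 with the replicate number as a block and 9 without AGO2-bound miR-130a replicate 2. In total RNA 6 rose and 4 fell, where 29.3% of all genes passed (15.9% higher and 13.3% lower). The AKT phosphatase gene PHLPP2 rose by 1.04 ± 0.14 (adjusted p = 0.00026), the stress-induced mTORC1 inhibitor DDIT4 fell by 0.93 ± 0.09 (adjusted p = 1.6e-05) and EIF4EBP1 fell by 0.78 ± 0.08 (adjusted p = 1.8e-05). Averaging probe sets moved NPRL3, PDPK1 and PHLPP2 by over 1.5 times and ended none of these calls.

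In the control transfection, 20 of the 44 were higher and 11 lower in AGO2-bound than in total RNA, where 72.9% of all genes passed (35.1% higher and 37.8% lower). All 4 receptor and adaptor genes were higher, with IGF1R at 3.05 ± 0.27 (adjusted p = 3.7e-10), the insulin receptor INSR at 2.52 ± 0.18 (adjusted p = 5.2e-12) and IRS2 at 2.50 ± 0.25 (adjusted p = 3.3e-09). SGK1, a kinase related to AKT, was higher by 3.91 ± 0.23 (adjusted p = 2.3e-13) and EIF4EBP2 by 3.57 ± 0.18 (adjusted p = 8.4e-15), while EIF4B stood at -2.17 ± 0.13 (adjusted p = 6e-13). Averaging probe sets moved EIF4EBP2, IGF1R and INSR by over 1.5 times without ending a call. SGK1 stood between 3.72 and 3.91 in all 4 transfections.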

How the data were processed

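Each of the 24 Affymetrix arrays was deposited as log2 values, 1 for every probe set. GCRMA and RMA in R 2.9.0 appear in the submitters' processing notes without roles. The floor of the values took 3 levels, shared within the arrays named in the results, and 39.9% to 41.5% of probe sets lay within 0.05 of it on each array. For arrays no read depth applies.

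Of 22277 probe sets, 19064 carried 1 gene symbol, 1043 several, 2108 none here, and 62 were controls. Through gene IDs, 19052 matched RefSeq and 0 symbols changed. A gene took its probe set with the highest mean, and genes under the median probe set (2.85) were left out. Moderated linear models (lmFit and eBayes of limma 3.58.1, under R 4.3.3) gave the p-values, adjusted by Benjamini-Hochberg. AGO2-bound and total RNA arrays were fitted apart for contrasts within a kind of RNA, and all 24 together otherwise. A gene list is described by its counts beside the share called over all genes.

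Members, lists and comparisons were chosen with earlier results of these data known. The wider list names at most 6 genes per comparison, those called with the largest absolute change. An exception is total RNA after miR-205, where LAMTOR2 and RRAGA are given beside their AGO2-bound rises although neither passed. Alternatives changed the filter, the probe set, the scaling, the spread prior, the arrays fitted, the replicate block and each array in turn. Replicate numbers are in the labels, and deviations of same-numbered arrays correlated over 0.1 in all 3 numbers for AGO2-bound miR-130a and scramble (0.11 to 0.52) and miR-203 and scramble (0.16 to 0.58), but not for miR-205 and scramble (-0.04 to 0.52) or total RNA with scramble. The AGO2-bound arrays of the 3 microRNAs pair among themselves (lowest 0.13). In simulated data for AGO2-bound RNA after miR-205, 200 of 6782 genes were changed and arrays varied independently. The test recovered 35.8%, 79.1% and 98.5% of those changed 1.5-, 2- and 4-fold, with 6 false calls. In the data 44% of genes passed in this comparison, so the same adjusted p was harder to reach in the simulation.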

Additional observations from a re-analysis of the deposited data

Results flagged for a closer look

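For 13 results the change over scramble in AGO2-bound RNA differed from the change in total RNA, by the test of that difference in all 24 arrays (limma, adjusted over 6782 genes). After miR-205 the difference was 5.05 ± 0.21 for MLST8, 1.09 ± 0.21 for RHEB, 0.86 ± 0.21 for AKT1 and 0.79 ± 0.19 for PIK3R1 (in 1 of its 3 probe sets). It was -0.57 ± 0.20 for TSC1 and -0.76 ± 0.20 for PIK3R3, the latter smaller in its dimmer probe set. After miR-203 it was 1.67 ± 0.21 for AKT1, 0.85 ± 0.21 for MLST8, 0.54 ± 0.20 for TSC1 and -0.60 ± 0.19 for TSC2. After miR-130a it was 0.95 ± 0.21 for MLST8, 0.58 ± 0.21 for AKT1 and -0.75 ± 0.24 for MTOR. MLST8 and AKT1 differed after all 3 microRNAs, which share the scramble arrays. The AKT1 call after miR-130a was lost in 8 of the 12 fits that leave out an array, whereas no such fit ended an MLST8 call. Leaving out single arrays also ended the MTOR call and both TSC1 calls, and averaging probe sets ended that of TSC2. Groups of 3 arrays were not searched for single arrays that stand apart.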

How the results depend on the processing

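Over the 19 comparisons of the 9 genes, the filter, the scaling, the prior, the arrays fitted and the replicate block turned no called direction. With the mean of all probe sets, PIK3R1 in AGO2-bound against total RNA after miR-130a was 0.34 (adjusted p = 0.011) in place of -0.01, and PIK3R1 in AGO2-bound RNA of miR-130a against miR-203 was 0.057 (adjusted p = 0.7) in place of -0.48. The replicate block ended no call and added 9. Among them was PIK3R1 in AGO2-bound RNA after miR-203, by the probe set used (0.34, adjusted p = 0.02), where the numbers pair the arrays. Leaving out 1 array moved the number of the 9 genes called between 1 and 3 for AGO2-bound miR-130a against scramble (2 with all arrays). For AGO2-bound miR-203 it was between 2 and 4 (4, and 2 without miR-203 replicate 2). Total RNA gave 3 to 6 after miR-205 (4 with all arrays) and 2 to 4 after miR-130a (3 with all arrays). Total RNA after miR-203 gave 1 to 2 (1, and 2 without scramble replicate 1). For the difference of changes after miR-130a the number was between 1 and 3 (3, and 1 without AGO2-bound scramble replicate 3). With 3 arrays per group and 200 of 6782 genes changed, 35.8% of simulated 1.5-fold changes were recovered in AGO2-bound and 73.1% in total RNA (miR-205 against scramble). Far more genes passed in the data (44% and 23.5%), so these shares do not give the recovery in the data themselves. Near the floor changes are compressed.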
